A study of Arabidopsis thaliana with 44 samples.

Results

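The 10 genes described here are Arabidopsis thaliana genes that plants are known to switch on when oxygen runs low. They were chosen by locus from that knowledge, with earlier results of these data known. All 10 were among the 34133 loci measured: ADH1 (AT1G77120), PDC1 (AT4G33070), HB1 (AT2G16060), SUS1 (AT5G20830), SUS4 (AT3G43190), ACO1 (AT2G19590), SAD6 (AT1G43800), LBD41 (AT3G02550), HRE2 (AT2G47520) and PCO1 (AT5G15120). In air, plant cysteine oxidases such as PCO1 oxidise the amino-terminal cysteine of ethylene response factors of the ERF-VII class, which marks them for breakdown by the N-degron pathway. When oxygen falls, these factors last longer, enter the nucleus and raise a small set of target genes that let the cell ferment pyruvate to ethanol, split sucrose at low cost and scavenge nitric oxide. Several targets, among them PCO1 and LBD41, are also used as reporters of the oxygen state of plant tissue.

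Whole seedlings had germinated and grown for 14 days in darkness in sealed canister hardware on the International Space Station, or in the same hardware at Kennedy Space Center with a start 2 days later. All plants were in the Col-0 background and grew on medium with 0.5% sucrose before fixation in RNAlater. The 5 genotypes were WT, the single mutants bzip28-2 and bzip60-2, the double mutant bzip28-2 bzip60-1, and a double mutant of both IRE1 genes, ire1a-4 ire1b-2. The mutants are written below as bzip28, bzip60, bzip28bzip60 and ire1aire1b. These mutants lack regulators of the unfolded protein response, in which the IRE1 kinases splice the bZIP60 messenger RNA and bZIP28 moves from the endoplasmic reticulum to the nucleus. Each of the 10 groups of genotype and condition held 4 libraries, made from seedlings collected from plates. The labels mention a single flight with its ground control and no repeat of either, so the p-values cover the spread between these libraries only. In RNA from whole seedlings, fewer cells of a type and less RNA per cell cannot be told apart.

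Levels are FPKM, fragments scaled to transcript length and to the mapped fragments of the library. The ribosomal RNA locus AT2G01021 took 22.5% ± 12.8 (SD, n = 20 libraries) of all FPKM in flight but 72.4% ± 14.1 (SD, n = 20) on the ground. Most other genes had lower deposited FPKM on the ground, and the part of this locus in that was not tested. Each library was therefore rescaled by its median ratio over the 14104 genes above 1 FPKM in every library, and "rescaled FPKM" below means these values. On the deposited scale the median log2 change of all genes from ground to flight, as a mean of the 5 genotypes, was 0.76, against 0.09 after rescaling, and deposited values are given wherever they change a direction or a call. A log2 change is a difference of log2(rescaled FPKM + 1), followed by its standard error (SE), and a gene is said to have risen or fallen only where the adjusted p of limma, with Benjamini-Hochberg adjustment over 18970 genes, was below 0.05. Markers of other tissues were summed per library. The 3 shoot epidermis markers had a median sum of 315 rescaled FPKM in flight (230 to 444) and 38.2 on the ground (18.9 to 72.5), and all 3 rose. The 4 vascular markers had 108 (90.8 to 151) and 72.2 (32.5 to 113), and all 4 rose. The 8 root markers had 2280 (1740 to 3370) and 1990 (1150 to 2690), with 4 of 5 tested rising. PYK10 alone, with means of 2250 in flight and 1840 on the ground, made up most of the root sum. The 4 seed storage markers had 0.219 and 0.0911, with 0 high enough to test. No marker was at 0 in all libraries. These sums moved with the flight results below, and their part in them was not tested.

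The 250 bases upstream of each gene were read from RefSeq's TAIR10.1 assembly, since ERF-VII factors are known to bind a hypoxia-responsive promoter element whose core begins with AAACCA. The core AAACCA, searched on both strands, was found in 4 of the 10 windows, those of ADH1, PDC1, SUS1 and SAD6, and in 27.3% of 27443 genes with such a window. The windows of the 3 of these genes that rose in flight are shown 5′ to 3′ on the gene's strand, with the core in capitals.
ADH1 (chr1:28975005-28975254, plus strand): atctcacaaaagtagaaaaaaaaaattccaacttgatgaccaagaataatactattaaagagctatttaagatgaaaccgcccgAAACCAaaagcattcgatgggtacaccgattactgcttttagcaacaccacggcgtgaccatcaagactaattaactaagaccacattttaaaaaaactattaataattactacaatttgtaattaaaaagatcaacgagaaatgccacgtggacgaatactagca
PDC1 (chr4:15954804-15955053, minus strand): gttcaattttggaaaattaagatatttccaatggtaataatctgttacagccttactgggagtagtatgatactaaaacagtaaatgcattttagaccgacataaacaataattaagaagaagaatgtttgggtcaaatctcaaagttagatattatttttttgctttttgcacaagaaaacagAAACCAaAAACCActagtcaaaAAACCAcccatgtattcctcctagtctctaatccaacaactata
SAD6 (chr1:16577271-16577520, plus strand): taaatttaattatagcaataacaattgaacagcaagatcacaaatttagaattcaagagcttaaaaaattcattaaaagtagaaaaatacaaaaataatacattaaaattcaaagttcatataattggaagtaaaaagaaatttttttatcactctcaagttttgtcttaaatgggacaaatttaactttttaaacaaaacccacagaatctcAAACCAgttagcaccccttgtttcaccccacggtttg
PDC1 held the core 3 times, at 44, 59 and 66 bases upstream of its start, SAD6 held it at 37 bases and ADH1 at 166 bases. A G-box, CACGTG, was present in 2 of the 10 windows, those of ADH1 and LBD41, against 6.49% of all genes, and the GCC-box GCCGCC in 0 of the 10 against 1.87%.
The full hypoxia-responsive promoter element was found in 0 of the 10 windows, against 0.0401% of all genes. HB1, SUS4 and ACO1 also rose in flight, and their windows held no AAACCA. Matches of the core and the boxes describe letters in the windows and do not show that a factor binds there.

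Across the genes the levels covered a wide range. HB1 had the highest mean over the 40 libraries, 99.4 rescaled FPKM, above 96.5% of the loci with a value. LBD41 and PCO1 followed with 57.0 and 51.5, and HRE2 had the lowest mean, 0.585, above 28.8% of such loci. HRE2 stayed under the mean of 1 rescaled FPKM needed for a test, so 9 of the 10 genes were tested. Within groups the spread was smallest for LBD41 and PCO1, with median coefficients of variation of 8.85% and 10.9% over the 10 groups, and largest for SAD6 and HRE2, with 51.4% and 54.2%.

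**Figure D1:**
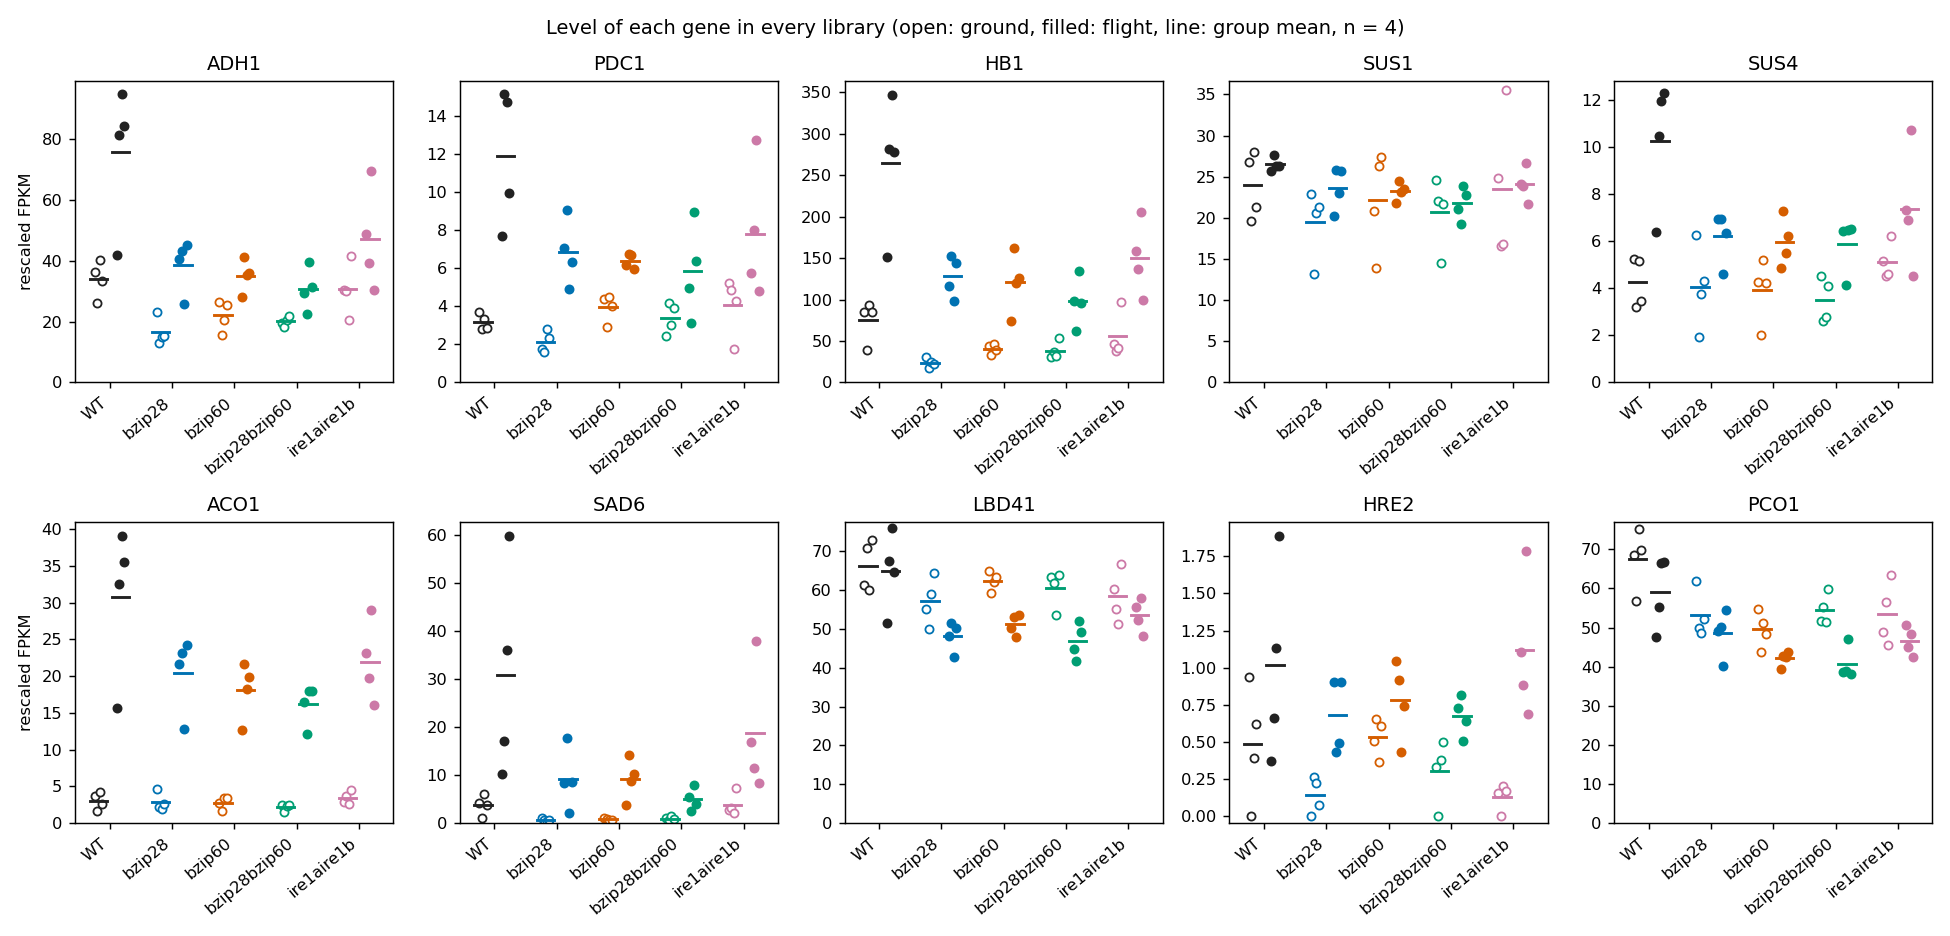
Rescaled FPKM (vertical axes, from 0 except for a small margin under HRE2) of each of the 10 genes in all 40 libraries, by genotype. Open points are ground, filled points flight, and lines are means of 4 libraries. ACO1 shows no overlap, with flight libraries from 12.2 to 39.1 and ground libraries from 1.57 to 4.63, while for the other 9 genes the 20 flight and 20 ground libraries overlap.

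Flight against ground, as the mean of the 5 genotypes, gave 6 genes that rose and 2 that fell among the 9 tested. Of all tested genes 46.3% rose and 33.8% fell in the same comparison, so most genes changed and a call alone sets no gene apart. The median log2 change of the 9 genes was 0.82, against 0.09 for all tested genes. ACO1, SAD6 and HB1 had the largest changes, PDC1, ADH1 and SUS4 smaller ones, SUS1 did not pass the test, and LBD41 and PCO1 fell slightly. By deposited FPKM all 9 rose, LBD41 and PCO1 included, where 84.6% of all genes, 16223 of 19186 tested, rose and 1069 fell.

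ADH1 and PDC1, the members that act in ethanol fermentation, rose in orbit. ADH1, the alcohol dehydrogenase that makes ethanol from acetaldehyde, had 22.6, 40.1 and 95.1 rescaled FPKM as the lowest, median and highest of 20 flight libraries. On the ground these were 12.9, 22.7 and 41.6, so the conditions overlapped. The log2 change was 0.81 (SE 0.108, limma adjusted p = 2.41e-08). PDC1, the pyruvate decarboxylase one step before it, had 3.12, 6.73 and 15.2 in flight and 1.603, 3.19 and 5.24 on the ground, with a log2 change of 0.98 (SE 0.113, limma adjusted p = 1.37e-09). In WT the PDC1 libraries read 7.70, 15.2, 14.8 and 9.99 in flight and 3.71, 2.83, 3.35 and 2.89 on the ground. Every flight library lay above every ground library there, and the share of all tested genes that did so was not counted.

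HB1, a class 1 phytoglobin that removes nitric oxide, had 62.6, 136 and 347 rescaled FPKM as lowest, median and highest in flight and 17.3, 38.9 and 96.6 on the ground. Its log2 change of 1.70 (SE 0.132, limma adjusted p = 8.91e-14) was positive in each genotype, from 1.32 in bzip28bzip60 to 2.39 in bzip28. Within each genotype all 4 flight libraries were above all 4 ground libraries. How many of all tested genes did so was not counted, so this does not set HB1 apart.

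The sucrose synthases, which split sucrose into fructose and a nucleotide sugar, did not move together. SUS4 had 4.16, 6.50 and 12.3 in flight and 1.94, 4.30 and 6.27 on the ground, and rose by 0.64 (SE 0.107, limma adjusted p = 1.79e-06). SUS1, the more abundant of the pair, had 19.3, 23.9 and 27.7 in flight and 13.2, 21.5 and 35.5 on the ground, so that its ground libraries spread around the flight ones. Its log2 change of 0.15 (SE 0.0843, limma adjusted p = 0.103) was not called after rescaling, but was 0.90 on the deposited scale (adjusted p = 7.15e-10) and 0.22 when libraries were set to an equal sum of nuclear genes (adjusted p = 0.0232). The longest stretch shared by the longest transcripts of SUS1 and SUS4 was 38 bases.

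ACO1, which converts the precursor ACC into the hormone ethylene, had the largest change of the 9. It had 12.2, 19.8 and 39.1 rescaled FPKM as lowest, median and highest in flight and 1.57, 2.61 and 4.63 on the ground. ACO1 was the only member whose 20 flight libraries all lay above its 20 ground libraries, as did 14.1% of all tested genes. The log2 change was 2.51 (SE 0.112, limma adjusted p = 2.51e-20), from 2.34 in bzip60 to 2.94 in WT. In WT the flight libraries read 15.7, 32.5, 39.1 and 35.6 and the ground libraries 3.66, 1.68, 4.28 and 2.56.

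SAD6, a stearoyl-ACP desaturase that low oxygen is known to induce, was the most variable of the genes that rose. It had 2.18, 9.46 and 59.8 in flight and 0.396, 1.02 and 7.30 on the ground, with a log2 change of 2.16 (SE 0.212, limma adjusted p = 2.97e-11). In WT the flight libraries read 10.3, 17.1, 36.04 and 59.8 and the ground libraries 4.11, 1.02, 6.09 and 3.69. In each genotype the flight libraries were all above the ground libraries. How many of all tested genes did so was not counted, so this does not set SAD6 apart.

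LBD41 and PCO1, the regulators among the tested genes, fell slightly after rescaling. LBD41, a transcription factor of the lateral organ boundaries family, had 41.8, 51.6 and 76.0 rescaled FPKM in flight and 50.0, 61.6 and 72.9 on the ground, and fell by 0.21 on the log2 scale (SE 0.0436, limma adjusted p = 5.8e-05). PCO1, a member of the plant cysteine oxidases, had 38.1, 46.0 and 66.9 in flight and 43.8, 53.4 and 75.2 on the ground. It fell by 0.23 (SE 0.0491, limma adjusted p = 6.75e-05). These directions flip with the scale. On deposited FPKM the log2 changes were 0.57 for LBD41 (adjusted p = 1.55e-07) and 0.54 for PCO1 (adjusted p = 9.65e-07), both smaller than the shift of 0.76 of the median gene on that scale. With libraries set to an equal nuclear sum both fell, by 0.14 and 0.16 (adjusted p = 0.0059 and 0.00476). HRE2, an ERF-VII factor that low oxygen induces, had 0.372, 0.778 and 1.89 in flight, and on the ground was listed at 0 in 4 of 20 libraries, with a median of 0.295 and a highest value of 0.936. It was not tested. With no filter on low values its log2 change would be 0.49 (limma adjusted p = 3.61e-06).

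**Figure D2:**
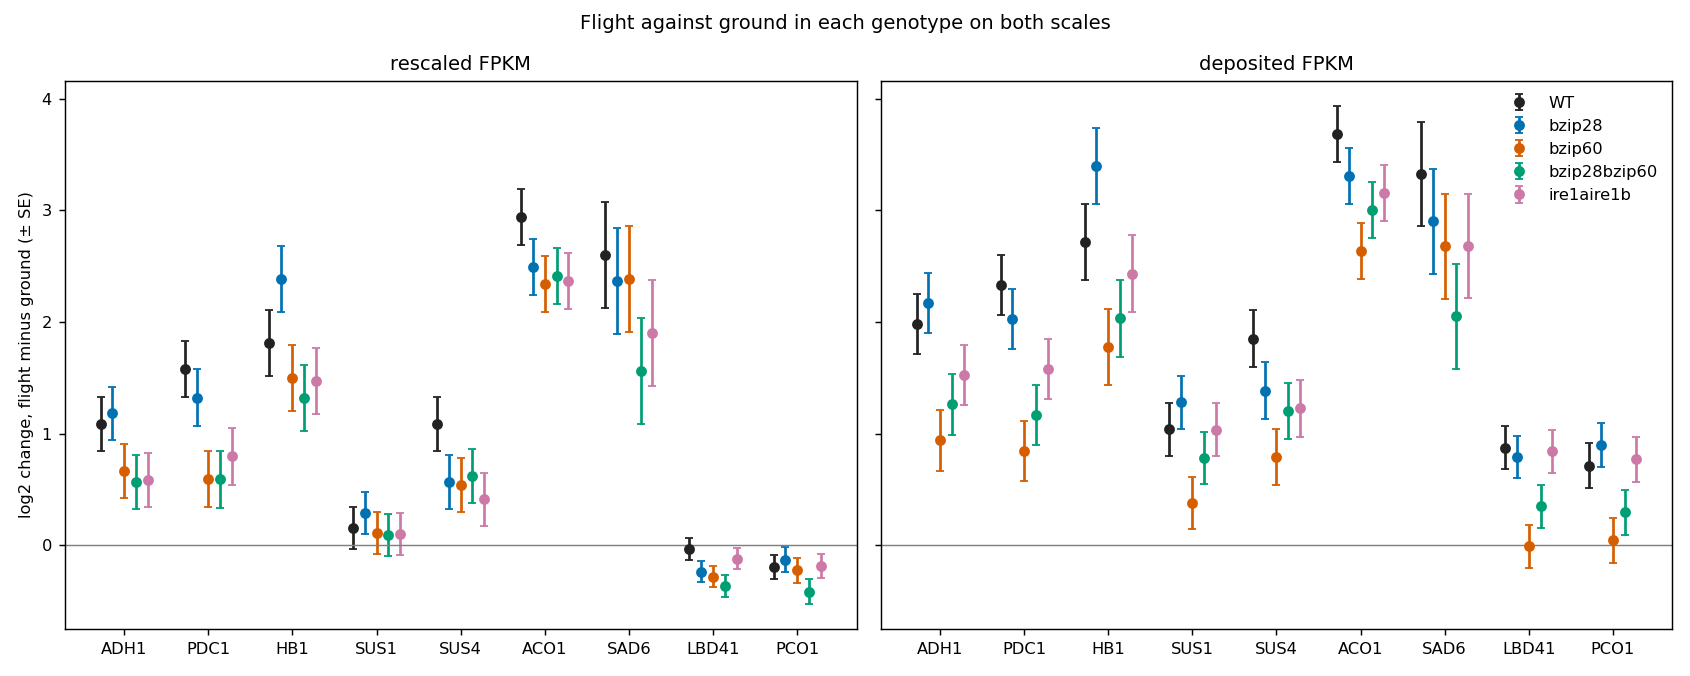
Log2 change, flight minus ground (vertical axis, points with bars of 1 SE), of the 9 tested genes in each of the 5 genotypes, on rescaled FPKM (left) and deposited FPKM (right). LBD41 and PCO1 lie below 0 on the left and mostly above 0 on the right, and ACO1 lies above 2 in every genotype on both.

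Sequencing lane was partly tied to condition: 11 flight libraries ran on lane 1 and 9 ground libraries on lane 3, while lanes 2 and 4 held both. Lane 4 held 5 flight and 5 ground libraries, but no bzip60 library, and bzip28bzip60 only in flight. With a term for genotype, its change rests on WT, bzip28 and ire1aire1b. Within this lane the same 6 genes rose. Their log2 changes were 1.16 for ADH1, 1.36 for PDC1, 2.00 for HB1, 0.84 for SUS4, 2.70 for ACO1 and 2.80 for SAD6. LBD41 and PCO1 changed by 0.0023 and -0.06 there and were not called (limma adjusted p = 0.983 and 0.589). Lane 2 held 4 flight and 6 ground libraries, but both conditions only for bzip60. With a term for genotype, its change is bzip60 flight library 4 against bzip60 ground libraries 1 and 2. The log2 changes were 2.74 for ACO1, 1.69 for HB1 and 2.53 for SAD6, and no call is given. LBD41 and PCO1 had -0.21 and -0.16 in that comparison. Neither was called within lane 4, and lane 2 has too few libraries to decide. The share of all tested genes called within lane 4 was not counted.

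Within single genotypes 5 or 6 of the 9 genes rose. In WT 6 of the 9 genes rose and 0 fell, where 35.2% of all tested genes rose and 25.2% fell. In bzip28 6 rose and 1 fell (all genes 34.7% and 24.6%), in bzip60 5 rose and 1 fell (32.8% and 23%), in bzip28bzip60 6 rose and 2 fell (32.2% and 22.8%), and in ire1aire1b 5 rose and 0 fell (33.7% and 24.2%). ADH1, PDC1, HB1, ACO1 and SAD6 rose in all 5 genotypes. The share of all tested genes that did so was not counted, so this sets no member apart. Several calls of ADH1 and PDC1 in the mutants lay close to the threshold: leaving out 1 of the 40 libraries removed the call of ADH1 in bzip28bzip60 in 17 cases and that of PDC1 in 22, and PDC1 was lost in 7 cases in bzip60 and ADH1 in 5 in ire1aire1b. With only the compared groups in the fit, ADH1 (limma adjusted p = 0.107) and PDC1 (0.0788) were not called in ire1aire1b, nor were PDC1 in bzip28bzip60 (0.0832) and SUS4 in bzip28 (0.0979). With lane as a term ADH1 and PDC1 were not called in bzip60 (limma adjusted p = 0.0625 and 0.255) or in bzip28bzip60 (0.195 and 0.299), nor were SUS4 (0.16) and SAD6 (0.0546) in bzip28bzip60. SUS4 rose in WT by 1.08 (SE 0.24, limma adjusted p = 0.000221), in bzip28 by 0.57 and in bzip28bzip60 by 0.62, and had 0.54 in bzip60 (adjusted p = 0.055) and 0.41 in ire1aire1b (adjusted p = 0.144) without a call. LBD41 fell in bzip28, bzip60 and bzip28bzip60 by 0.24, 0.28 and 0.36, and PCO1 in bzip28bzip60 by 0.42. With deposited FPKM 0 genes fell in any genotype: in the same 4 cases LBD41 had 0.79, -0.01 and 0.35 and PCO1 0.29. Several of the counts rest on single libraries. Without bzip28bzip60 flight library 1, 3 or 4, or ground library 3, only 3 genes rose in that genotype, without bzip60 flight library 2 or ground library 2 only 3 rose in bzip60, and without ire1aire1b flight library 3 or ground library 3 only 3 rose in ire1aire1b. The fall in bzip28 was lost (0 genes) without its flight library 1 or 3 or its ground library 3 or 4, and in bzip60 2 genes fell without ground library 2. Leaving out WT ground library 2 gave 1 gene that fell in WT.

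Ranked by group mean, WT in flight stood first of the 10 groups for ADH1, PDC1, HB1, SUS1, SUS4, ACO1 and SAD6, and WT on the ground stood first for LBD41 and PCO1. For HRE2 ire1aire1b in flight stood first with 1.115 ± 0.48 (SD, n = 4), ahead of WT in flight with 1.014 ± 0.663, and their libraries overlapped. The order of the flight groups of ADH1 ran from 75.7 ± 23.3 rescaled FPKM in WT (SD, n = 4) through 47.1 ± 16.8 in ire1aire1b, 38.8 ± 8.88 in bzip28 and 35.2 ± 5.40 in bzip60 to 30.7 ± 6.94 in bzip28bzip60. WT on the ground, with 34.04 ± 5.89, lay between the last of these. Among neighbours in the order the libraries overlapped for all genes but ACO1, where bzip28bzip60 in flight stood 4.71-fold above the next group, ire1aire1b on the ground, and PDC1, where WT on the ground stood 1.5-fold above bzip28 on the ground.

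The mutants were next compared with WT within each condition, which asks whether a regulator of the unfolded protein response bears on these genes. All 4 comparisons share the WT libraries. In flight the log2 change was negative for 9 of 9 genes in each mutant, where 46.6% to 48.8% of all genes were negative, but few passed the test. Since the mutants share the WT libraries and the genes vary together, these counts are not independent of each other. In bzip28bzip60 5 of 9 fell, where 0.316% of all tested genes were called. HB1 libraries there read 97.9, 62.6, 134 and 95.9 against 151, 281, 347 and 277 in WT, with a log2 change of -1.41 (SE 0.296, limma adjusted p = 0.0143) and no overlap. ADH1 read 29.5, 22.6, 39.5 and 31.3 against 41.8, 81.5, 95.1 and 84.3, a change of -1.24 (SE 0.241, limma adjusted p = 0.0071), again without overlap. SAD6 read 5.44, 2.61, 7.94 and 3.91 against 10.3, 17.1, 36.04 and 59.8, a change of -2.20 (SE 0.475, limma adjusted p = 0.0191), without overlap. PCO1 fell by 0.52 (SE 0.11, limma adjusted p = 0.0159) without overlap, and LBD41 fell by 0.45 (SE 0.0974, limma adjusted p = 0.0194) with overlapping libraries. PDC1, SUS4 and ACO1 had changes of -0.94, -0.69 and -0.83 without a call. For comparisons of a mutant with WT, the share of all tested genes without overlap was not counted.

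The 5 calls in bzip28bzip60 rest on few libraries: 0 were called without bzip28bzip60 flight library 2 or without WT flight library 3, 1 was called without WT flight library 4, and 3 without bzip28bzip60 flight library 1 or 4 or WT flight library 2. Deposited FPKM gave 2 calls, ADH1 (adjusted p = 0.0333) and SAD6 (adjusted p = 0.0201), where 0.162% of all genes were called lower, and when only the 2 groups entered the fit 0 were called. In the other mutants 0 of 9 were called in flight, by limma with 0.185% of all genes called in bzip28, 0.248% in bzip60 and 0.232% in ire1aire1b, while at an unadjusted p below 0.05 the counts were 8, 8 and 5, where 3.29%, 4.92% and 3.76% of all genes passed. In bzip60 ADH1 had -1.03 (SE 0.241, limma adjusted p = 0.0581) and PCO1 -0.47 (SE 0.11, limma adjusted p = 0.0627), both without overlap with WT. WT flight library 1 had the lowest level of its group for all 10 genes, and without it 4 genes were called lower in bzip60 and 2 in bzip28.

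**Figure D3:**
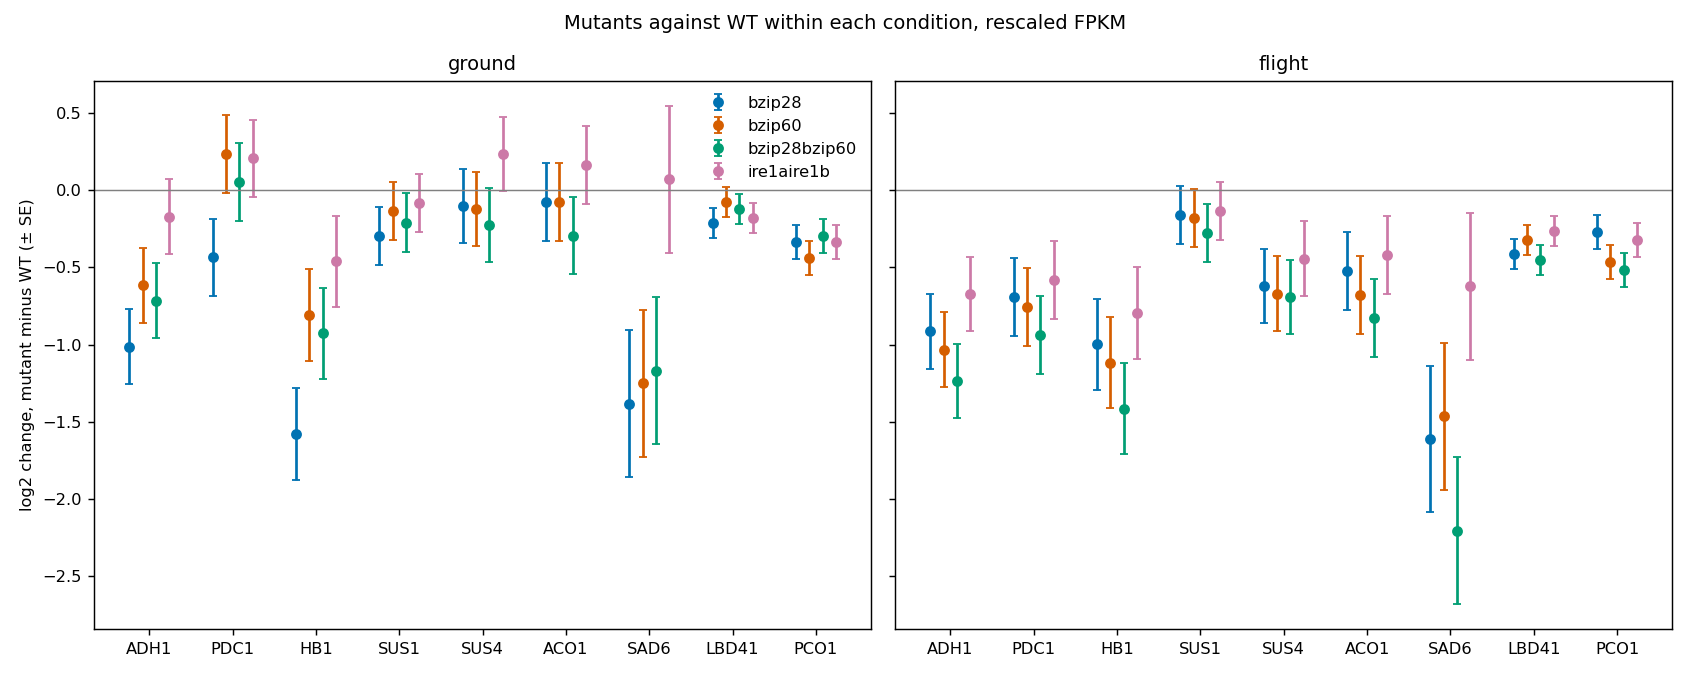
Log2 change of each mutant minus WT (vertical axis, points with bars of 1 SE, rescaled FPKM) for the 9 tested genes, on the ground (left) and in flight (right). Every point in flight lies below 0, with SAD6 in bzip28bzip60 lowest at -2.20.

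On the ground 2 of 9 genes fell in bzip28, where 3.41% of all tested genes were called. HB1 read 30.3, 17.3, 24.5 and 22.8 in bzip28 and 84.5, 38.7, 93.8 and 85.0 in WT, with a log2 change of -1.58 (SE 0.296, limma adjusted p = 0.00124). ADH1 read 23.3, 12.9, 14.9 and 15.2 against 36.4, 26.2, 40.1 and 33.5, a change of -1.01 (SE 0.241, limma adjusted p = 0.0123). Neither gene overlapped between the groups, and both were also called lower on the deposited scale, as were 0.683% of all genes, but neither when only the 2 groups entered the fit. In bzip60 1 gene fell, PCO1, by 0.44 (SE 0.11, limma adjusted p = 0.0162) where 4.7% of genes were called. PCO1 had 0.19 there on the deposited scale (adjusted p = 0.386), LBD41 and PDC1 rose where 69.8% of all genes did, and 0 fell where 0.25% of all genes did. By limma 0 of 9 were called in bzip28bzip60, where 2.42% of all genes were, and 0 in ire1aire1b, where 0.474% were, with 4 and 1 at an unadjusted p below 0.05, which 15.8% and 10.9% of all genes passed. Without WT ground library 2, the lowest of its group for 9 of the 10 genes, 4 fell in bzip28, 3 in bzip60 and 1 in bzip28bzip60, while without bzip28 ground library 2 only 1 fell in bzip28. The PCO1 call was lost without bzip60 ground library 2 or WT ground library 3, leaving 0.

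The flight response itself was compared between each mutant and WT. By limma 0 of the 9 genes were called in any of the 4 mutants, where 0.0843% of all genes were called for bzip28, 0.058% for bzip60, 0.0791% for bzip28bzip60 and 0.00527% for ire1aire1b. At an unadjusted p below 0.05 the counts were 0, 1, 2 and 1, where 7.82%, 8.26%, 7.05% and 5.71% of all genes passed. PDC1 was nearest to a call, with a response smaller than in WT by -0.99 (SE 0.357, limma adjusted p = 0.381) in bzip60, -0.99 (SE 0.357, adjusted p = 0.474) in bzip28bzip60 and -0.79 (SE 0.357, adjusted p = 0.833) in ire1aire1b. For ACO1 the differences were -0.45 to -0.60 (SE 0.356) over the 4 mutants. From deposited FPKM 5 genes were called lower in bzip60, namely ADH1, PDC1, SUS4, ACO1 and LBD41, where 22.2% of all genes were called lower. On that scale the median log2 change of all genes was 0.32 in bzip60 against 0.87 in WT.

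Several of the genes varied together between libraries. Over the 40 libraries Pearson's r of log2(rescaled FPKM + 1) was 0.934 for ADH1 and HB1, 0.936 for HB1 and SAD6, and 0.743 for LBD41 and PCO1. These are descriptions, and the libraries share lanes and conditions. ACO1 and PCO1 gave r = -0.262 over the 40 libraries, but 0.807 once each group's mean was subtracted, and ADH1 and PCO1 gave 0.268 and 0.837. Within groups, libraries high in PCO1 thus tended to be high in ACO1 and ADH1, while between conditions the mean of PCO1 was lower in flight and those of ACO1 and ADH1 higher. Some libraries stood low for the whole set: WT flight library 1 and ire1aire1b flight library 4 were the lowest of their groups for all 10 genes, WT ground library 2 for 9, and bzip28 flight library 3, bzip60 ground library 2 and bzip28bzip60 flight library 2 for 8 each.

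**Figure D4:**
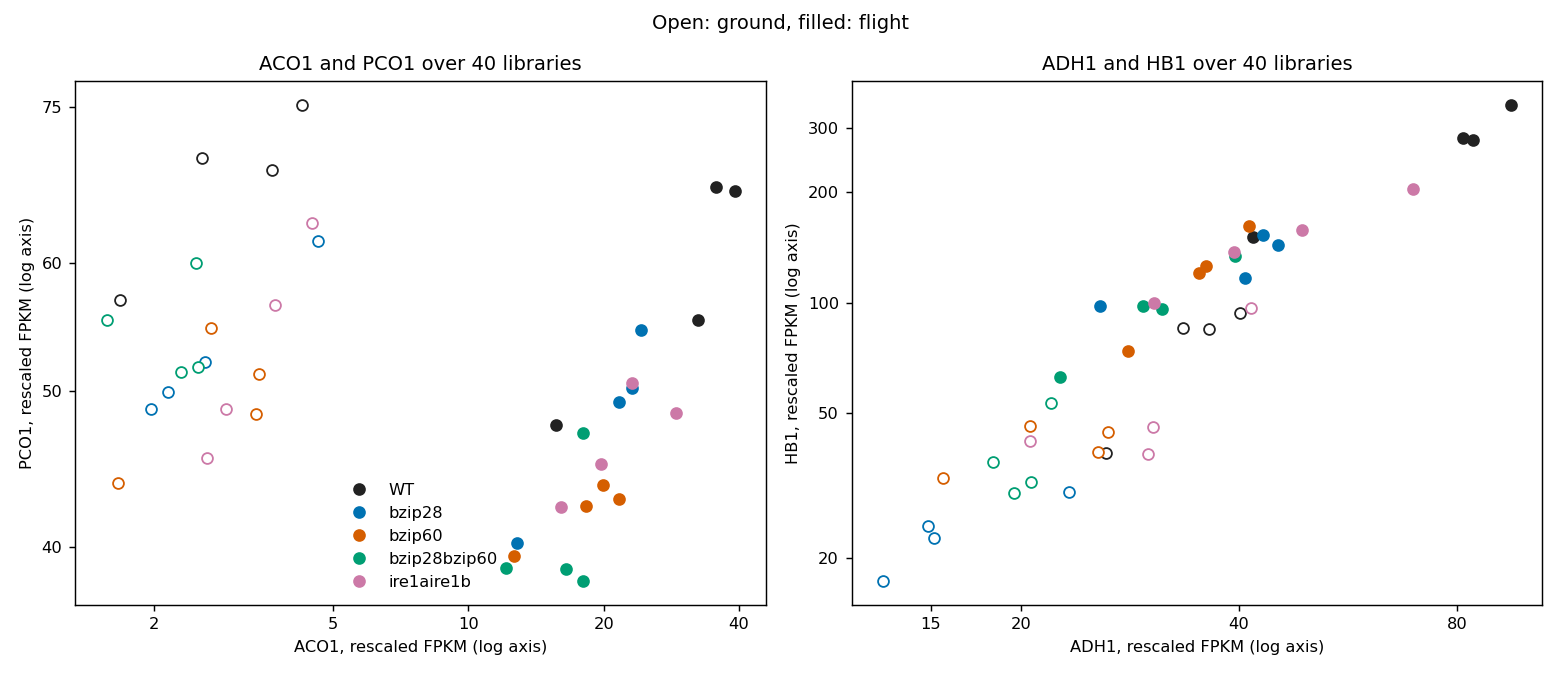
Rescaled FPKM of PCO1 against ACO1 (left) and of HB1 against ADH1 (right) in the 40 libraries, on log axes, with open points for ground and filled points for flight. ACO1 splits the libraries by condition without overlap. Once the mean of each group of genotype and condition was subtracted, PCO1 and ACO1 gave r = 0.807. ADH1 and HB1 follow 1 line (r = 0.934).

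The genes outside the set whose levels over the 40 libraries were most like each member were found by the same r. ASP2, a cytosolic aspartate aminotransferase, was among the nearest to HB1 (r = 0.945), SAD6 (0.948), PDC1 (0.913) and ADH1 (0.918). AT3G03270 was nearest to ADH1 (0.939) and SUS4 (0.871), AT4G33560 close to HB1 (0.936), and AT3G27220 close to SAD6 (0.926) and SUS4 (0.864). For LBD41 the nearest were AT4G27450 (0.822) and AT1G33055 (0.758), and for PCO1 AT4G27450 (0.799) and AlaAT1, an alanine aminotransferase (0.768). ACO1 had other neighbours, CYP83A1 (0.968) and AT1G04040 (0.965), PDC1 also PMEPCRA (0.875), SUS1 ACBP1 (0.805) and AT1G66880 (0.801), and HRE2 FaTA (0.755) and CYP5 (0.753).

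The rest of the pathway was described from lists of known genes. Of 17 tested genes for fermentation and sugar supply 5 rose and 9 fell in the mean of the genotypes, with a median log2 change of -0.10. Among all tested genes 46.3% rose and 33.8% fell in that comparison, with a median of 0.09. SUS3, another sucrose synthase, fell from 18 ± 3.62 to 4.51 ± 0.743 rescaled FPKM (SD, n = 20 each, log2 change -1.78, limma adjusted p = 4.85e-24), and PPDK, pyruvate orthophosphate dikinase, from 66.3 ± 14.9 to 17.7 ± 2.64 (-1.83). ALDH2B4, a mitochondrial aldehyde dehydrogenase, fell by 0.87, and AT1G12000, a beta subunit of the pyrophosphate-dependent phosphofructokinase, rose by 1.00. SUS3 and SUS4, both sucrose synthases, thus moved in opposite directions.

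Of 15 tested genes of oxygen sensing and the ERF-VII pathway 7 rose and 5 fell (median 0.10), against 46.3% and 33.8% of all tested genes. RAP2.12, an ERF-VII factor made in air and held at the plasma membrane, fell from 196 ± 13.8 to 117 ± 7.19 (log2 change -0.74, limma adjusted p = 1.14e-21), and its anchor ACBP2 from 16.3 ± 1.86 to 9.79 ± 0.845 (-0.68). ERF73, also known as HRE1 and induced by low oxygen like HRE2, rose from 21.9 ± 4.81 to 32.5 ± 7.36 (0.55, limma adjusted p = 4.25e-09), and AT3G10040, which encodes the RAP2.12 antagonist HRA1, from 4.80 ± 0.967 to 8.87 ± 2.09 (0.76).

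Of 37 other genes that low oxygen is known to induce 12 rose and 17 fell (median -0.11), against 46.3% and 33.8% of all tested genes. The largest rises were those of AT4G33560, from 2.75 ± 2.11 to 22.6 ± 13.9 (2.69), AT4G10270 (1.84), AT2G17850 (1.48) and AT5G26200 (1.46). Of 15 tested relatives of the members 11 rose and 2 fell (median 0.35), beside the same shares of all tested genes. HB2, the class 2 phytoglobin, rose from 1.24 ± 0.878 to 16.5 ± 2.11 (3.06, limma adjusted p = 7.16e-24), the ACC oxidase EFE rose by 0.73, and AT1G77330, a further ACC oxidase, rose by 1.29. On the deposited scale 15 of 19 tested genes for fermentation and sugar supply rose and 2 fell. For oxygen sensing 13 of 15 rose and 0 fell. Among the other induced genes 26 of 37 rose and 4 fell, and among the relatives 14 of 15 and 1. Of all genes tested on that scale 84.6% rose, 16223 of 19186, and 1069 fell. After rescaling each list held genes that rose and genes that fell.

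**Figure D5:**
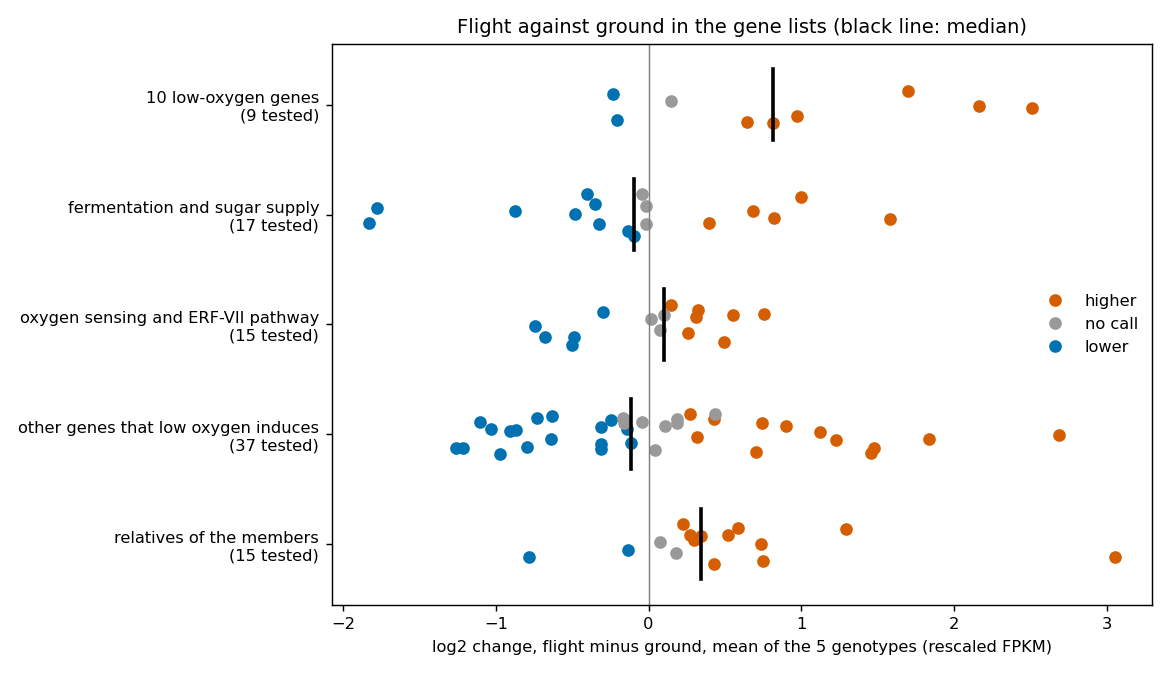
Log2 change, flight minus ground, as the mean of the 5 genotypes (horizontal axis, rescaled FPKM) for the 9 tested members and the tested genes of 4 lists, 1 point per gene, coloured by call, with the median as a black line. The members' median is 0.82, and those of the lists lie between -0.11 and 0.35, with points on both sides of 0 in every list.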

How the data were processed

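Per the labels' protocols, libraries were prepared from whole-seedling RNA with an Illumina TruSeq kit that keeps strand. The submitters' processing notes name FastQC 0.11.5, cutadapt 1.8.1, Bowtie2 2.2.4, TopHat2 2.0.14, Cufflinks 1.3.0 and the TAIR10 build. The authors deposited 1 table of FPKM for 34133 loci and 40 libraries, 4 in each of 10 groups. Of the 44 labelled samples 4, used for quality control per the labels, have no column and were not analysed here. No read counts were used and low values showed no clear read step, so the depth is unknown, and precision was taken from the spread between libraries.

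FPKM were rescaled by the median ratio over 14104 genes, taken to log2(value + 1), and the 18970 genes with a mean of at least 1 entered a linear model of limma 3.58.1 (R 4.3.3) with 10 group means and moderated variances with a trend (30 residual degrees of freedom). There were 18 comparisons: flight against ground per genotype and their mean, each mutant against WT per condition, and the differences of flight responses. P-values were adjusted by Benjamini-Hochberg over all tested genes, with calls at values below 0.05. The members and the gene lists were chosen with earlier results of these data known, and the rescaled scale replaces the deposited one as the main scale because of the ribosomal RNA share. All 10 members were named, and from each list up to 4 genes with the largest change in the mean among those called with a group mean of at least 5 rescaled FPKM, plus the 2 genes most like each member and the ribosomal RNA locus AT2G01021. One gene that this rule names and one promoter match are not reported here. All 10 loci matched RefSeq's TAIR10.1 annotation by ID, which gave names and upstream windows. Alternatives were the deposited scale, an equal nuclear sum, a pseudocount of 0.1, no filter, fits of only the compared groups, the replicate number, library letter or lane as a term, single lanes, and each library left out in turn. Without 2 ground libraries of low scale factor is an alternative chosen after seeing the data. Figures were drawn with matplotlib 3.10.9 in Python 3.11.15.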

Additional observations from a re-analysis of the deposited data

Results flagged for a closer look

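In 4 of 100 sets of 4 libraries (each gene in each group), 1 library stood far from the others of its group by Dixon's test, and chance flags about 1 set in 20. HB1 had 96.6 rescaled FPKM in ire1aire1b ground library 4, where the other 3 libraries had 38.4 to 45.8. HB1 had 38.7 in WT ground library 2, below 84.5 to 93.8 in the others. SUS4 had 4.16 in bzip28bzip60 flight library 2, below 6.42 to 6.52. PCO1 had 47.1 in bzip28bzip60 flight library 3, above 38.1 to 38.8.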

How the results depend on the processing

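Over all settings other than leaving out single libraries, 326 counts stayed within 1.5 times and 36 moved; of the values of single genes 1401 kept direction and call, 48 lost a call, 23 gained one and 13 changed sign. The causes were not tested. The sign changed on the deposited scale for LBD41 in flight against ground (WT 0.87, bzip28 0.79, bzip28bzip60 0.35, ire1aire1b 0.84, mean 0.57), for PCO1 in the same comparisons (0.71, 0.90, 0.29, 0.77 and 0.54) and for both in bzip60 against WT on the ground (0.55 and 0.19), and within lane 4 for LBD41 (0.0023). On the deposited scale the members that fell in flight numbered 0 in bzip28, bzip60, bzip28bzip60 and the mean, and 9 rose in ire1aire1b. Against WT on that scale, 2 rose and 0 fell in bzip60 on the ground, and 2 fell in bzip28bzip60 in flight. A lower response in bzip60 was called for 5. The lists gave 15 and 2, 13 and 0, 26 and 4, and 1 lower for the relatives, where 84.6% of all genes rose in the mean. With an equal nuclear sum 0 fell in bzip28 and in bzip60, 3 fell in bzip28bzip60 against WT in flight, and 1 relative fell. With a pseudocount of 0.1, 2 fell in bzip60 against WT on the ground. With only the compared groups, 0 fell in flight in bzip28 and 2 in bzip60, 3 rose in ire1aire1b, and against WT 0 fell in bzip28 and bzip60 on the ground and 0 in bzip28bzip60 in flight. With the library letter as a term 3 fell in that last comparison. With lane as a term 0 fell in bzip28, 3 rose and 0 fell in bzip60, and 2 rose in bzip28bzip60. Within lane 4, where only WT, bzip28 and ire1aire1b had both conditions, 0 fell. Lane 2 had both conditions only for bzip60, with its flight library 4 alone, so its counts are not given. Without the 2 ground libraries of low scale factor, a setting chosen after seeing the data, 2 fell in bzip60 against WT in flight.

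Leaving out 1 library at a time, the members that rose in flight ranged from 3 to 6 in bzip60, bzip28bzip60 and ire1aire1b, and those that fell from 0 to 1 in WT and bzip28 and from 1 to 2 in bzip60. Against WT in flight, those that fell ranged from 0 to 2 in bzip28, 0 to 4 in bzip60 and 0 to 6 in bzip28bzip60, and on the ground from 1 to 4, 0 to 3 and 0 to 1. Same-numbered libraries showed little shared deviation: 3 of 20 pairs had a correlation over 0.1 (range -0.111 to 0.177). No pairing was used, but low correlations cannot exclude one. Pairing by the letter and digit codes in the library names was not tested. With the replicate block 4 members rose in bzip28bzip60 in place of 6, and all called genes in WT flight against ground went from 11455 to 11502. Depth is unknown, and HRE2 was too low to test.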
